A study of Mus musculus with 2 samples.

Results

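Neighbouring TBP sites are short stretches of enriched reads that stand within 5 kb of another such stretch in mouse embryonic stem cells. The genome of chromosomes 1 to 19 was divided into tiles of 200 bp, and a site was a series of touching tiles with at least 15 distinct reads in library B2 and at least 6 in library B6. A distinct read is 1 read per position and strand, with its 5′ end moved 60 bp towards the fragment centre. Of 12761 sites, 12278 spanned 1 to 3 tiles. Of these, 3024 (24.6%, Wilson 95% interval 23.9 to 25.4) had another site of 1 to 3 tiles at a gap of 400 to 5000 bp and are the members described here. A further 8243 sites of 1 to 3 tiles had no site of any width within 5 kb and are called standing alone. The remaining 1011 had near them only a site 200 bp away or one wider than 3 tiles.

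Both libraries are chromatin immunoprecipitations of TBP with Abcam antibody AB818 from V6.5 cells, an embryonic stem cell line of a C57BL/6-129 cross, and they form 1 group. The cells carried no treatment or edited allele in the labels, and were taken off their feeder fibroblasts for 2 passages before B2 and 1 passage before B6. B2 held 15563916 distinct reads on chromosomes 1 to 19 and B6 held 2796016, with reads of 36 and 26 bases. Gel slices of 150 to 350 bp were taken for B2 and of 150 to 300 bp for B6. By the labels the cells were taken after different numbers of passages, but whether independent cultures were started is not told. Tests below therefore compare the reads of these 2 libraries, and no library without antibody was analysed here. Positions are on mouse build mm8, for which no annotation or sequence was used here, so that sites are named by position and not by gene.

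TBP, the TATA-binding protein, is a shared subunit of the assemblies that place the nuclear RNA polymerases at their start sites. It is part of TFIID at protein-coding genes, of TFIIIB at tRNA and other small RNA genes, and of the selectivity factor at ribosomal RNA genes. Start sites often lie close together in mammalian genomes, in head-to-head gene pairs, in clusters of small RNA genes and in genes with more than 1 start. Neighbouring signals can therefore mark separate start sites, but the reads used here carry no information on transcription.

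The members were chosen by their read counts, widths and gaps, so these are given as a description. A member held 15 to 391 distinct reads in B2, with a median of 38, and 6 to 194 in B6, with a median of 14. By width, 1799 spanned 1 tile, 944 spanned 2 and 281 spanned 3. Together the members covered 0.906 Mb, or 0.0425% of the mapped genome. Their part of all distinct reads was 1.13% in B2, which is 26.7 times what an even spread would place there, and 2.30% in B6, or 54.2 times. At the edge of the rule, 104 members had exactly 15 reads in their highest tile in B2 and 368 had exactly 6 in B6. Just outside, 655 tiles had 14 reads in B2 with enough in B6, and 2699 had 5 in B6 with enough in B2. The 281 members of 3 tiles held a median of 120 reads in B2 and 43 in B6. The 351 sites of 4 tiles held 166 and 59, and 80 of these had a site of 1 to 3 tiles in range.

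The members depended on where tiles began and on both thresholds. With all tiles moved by 100 bp, 3039 members were found, and 2123 of the 3024 (70.2%) overlapped one of them. With minima of 20 and 8 reads there were 1721 members. With tiles called from B2 alone there were 6030, and from B6 alone 4551.

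Counted per 200 bp of gap, neighbouring pairs were most frequent at the shortest gaps. The members formed 1536 pairs of consecutive sites, and 213 members were in no such pair because another site lay between them and their neighbour. A gap of 400 bp occurred in 292 pairs, a gap of 600 bp in 202 and a gap of 800 bp in 133. From 1000 to 2000 bp there were 59.2 pairs per 200 bp of gap, and from 2200 to 5000 bp there were 36.9. Beyond the limit of the rule the numbers fell slowly, to 32.2 per 200 bp from 5200 to 10000 bp and 25.4 from above 10000 up to 20000 bp. Gaps of 400 to 800 bp thus held 627 pairs (40.8%), gaps of 1000 to 2000 bp held 355 and gaps of 2200 to 5000 bp held 554. Just outside the rule, 659 pairs had a gap of 200 bp and 34 had a gap of 5200 bp, against 37 at 5000 bp. The weaker partner held a median of 25 reads in B2 at 200 bp, 23 at 400 bp, 26 at 5000 bp and 26 at 5200 bp.

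**Figure D1:**
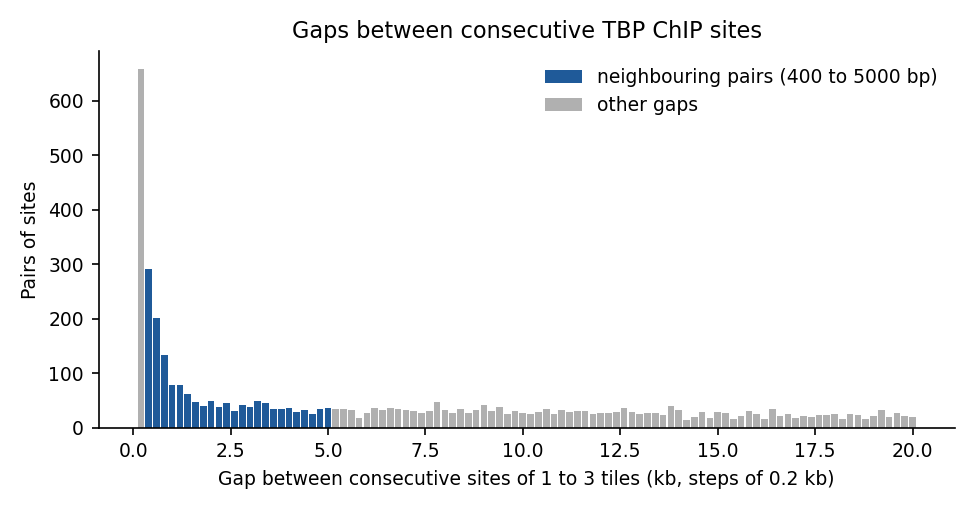
Number of pairs of consecutive sites of 1 to 3 tiles (vertical axis) by the gap between them in kb (horizontal axis, steps of 0.2 kb). Blue bars are the gaps of the neighbouring pairs, which fall from 292 pairs at 400 bp to 37 at 5000 bp; grey bars are gaps outside the rule.

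The read counts between close partners fell well below both of them in most pairs. In pairs with gaps of 400 to 800 bp, the lowest tile of the gap held a median of 6 reads in B2 and 1 in B6. It was under 50% of the weaker partner's highest tile in 531 of 627 pairs (84.7%) in B2 and in 579 (92.3%) in B6. It was under 25% in 313 pairs (49.9%) in B2 and in 443 (70.7%) in B6. In gaps of 1000 to 2000 bp the lowest tile was under 25% in 324 of 355 pairs in B2, and in gaps of 2200 to 5000 bp in 554 of 554. Tiles of a gap had to miss a threshold and longer gaps offer more tiles, so part of this contrast is set by the rule. Between partners 400 to 800 bp apart a tile held on average 10.7 reads in B2, 7.34 times the genome mean, and 2.77 in B6, 10.6 times the mean. In gaps of 2200 to 5000 bp these means were 4.74 and 1.03 reads, or 3.26 and 3.94 times the genome mean.

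The distance between partners was nearly the same in both libraries. Centres were taken as the mean of the moved read ends of each site in each library. Partner centres lay a median of 1561 bp apart by the reads of B2 and 1558 bp by those of B6. It differed between the libraries by a median of 20.8 bp per pair, and by at most 50 bp in 1362 of 1536 pairs (88.7%). At gaps of 400 to 800 bp these medians were 819 and 821 bp, with a median difference of 19.7 bp. Centres lie within sites whose borders are common to both libraries, which limits how far they can differ.

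The highest pairs, ranked by the weaker partner's distinct reads scaled to the library total (RPM) averaged over the libraries, lay on chromosomes 17, 3, 11, 12, 14, 2, 1 and 19. Both of the first 2 belonged to 1 run of 4 members on chromosome 17. Its sites were chr17:23274001-23274400, chr17:23274601-23275200, chr17:23276201-23276600 and chr17:23277801-23278400. In B2 they held 294, 277, 286 and 307 distinct reads, and in B6 103, 108, 107 and 107. The 4 sites were thus almost level, with the highest 1.11 times the lowest in B2 and 1.05 times in B6. The first 2 sites of the run were split by a gap of 200 bp, whose tile held 1.22 RPM in B2 and 0.358 RPM in B6. The weaker partner of the leading pair reached 18.4 RPM in B2 and 38.3 RPM in B6, a mean of 28.3 ± 14.1 (SD, n = 2). With duplicates kept, the same sites held 809, 642, 894 and 677 reads in B2, so that removal of duplicates brought them closer together.

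On chromosome 3, chr3:51446001-51446400 held 277 reads in B2 and 95 in B6. Its partner chr3:51447001-51447600 held 302 and 120. The right partner was higher in both, and the 3 tiles between held as few as 11 reads in B2 and 0 in B6. On chromosome 11, chr11:87238801-87239400 and chr11:87242601-87243200 were 3200 bp apart and held 206 and 193 reads in B2 and 96 and 96 in B6. The lowest tile of their gap was without a read in each library, and this was the highest pair with a gap of 2200 to 5000 bp. On chromosome 12, chr12:53525001-53525600 and chr12:53526001-53526600 were the highest pair at the smallest gap of 400 bp. They held 236 and 262 reads in B2 and 86 and 112 in B6, against 4 and 1 in the lowest tile between.

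Partners were less even in the other pairs of the 10. On chromosome 14, chr14:50011001-50011600 held 378 reads in B2 and 123 in B6, above its partner chr14:50012401-50012800 with 219 and 86. On chromosome 1, chr1:167478201-167478400 was the lower one in both libraries, with 185 and 71 reads against 309 and 139 in chr1:167478801-167479400. On chromosome 19, chr19:5802401-5802800 held 292 reads in B2 and 144 in B6, and chr19:5803201-5803800 held 201 and 67. On chromosome 3, a further pair stood at chr3:96582801-96583400, with 247 and 64 reads, and chr3:96584801-96585400, with 281 and 96. The pair chr2:98464401-98465000 and chr2:98465601-98466200 stood apart, since reads with 2 alignments were frequent there, with 174 and 136 distinct in B2 beside 269 and 98 reads with 1 alignment. Its B6 counts were 141 and 95. In the other nine pairs the most such reads at a partner in B2 was 28.

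**Figure D2:**
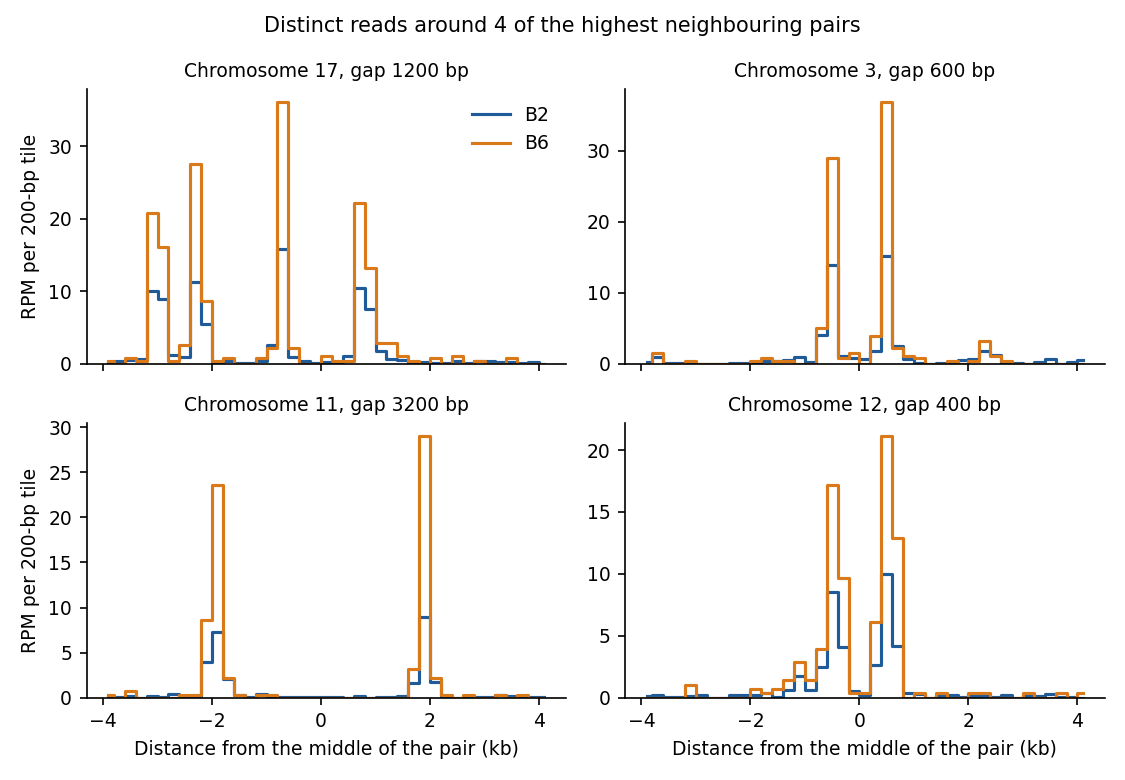
Distinct reads scaled to the library total (RPM) in tiles of 200 bp (vertical axes, 1 scale per panel) by distance from the middle of the pair in kb (horizontal axes), in B2 (blue) and B6 (orange), for the 4 highest pairs that do not overlap. Peaks stood at the same distances in both libraries, and the panel of chromosome 17 holds the 4 sites of the run, which were level by their sums over tiles.

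Long runs of neighbouring sites were uncommon. Members joined by gaps of up to 5 kb formed 1287 runs, of which 984 (76.5%) had 2 members and 213 had 3. The 90 runs of 4 or more held 417 members (13.8%). The longest run had 10 members over 15000 bp on chromosome 8, from 87540401 to 87555400. This run held gaps of 200 bp, as between chr8:87550001-87550200 and chr8:87550401-87550600. Its sites held 30 to 139 reads in B2, with a median of 49, and 7 to 60 in B6, with a median of 15. The site chr8:87554001-87554600 was the highest of the run in both. A run of 8 members on chromosome 11 extended from 77992601 to 78005800, with 19 to 120 reads in B2 and 7 to 33 in B6. The site chr11:77999601-78000000 was the highest there in both libraries.

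There were 4 runs of 7 members, and the 3 with the highest mean RPM lay on chromosomes 6, 5 and 4. The other, on chromosome 18 from 61749401 to 61765400, held 19 to 86 reads per site in B2 and 6 to 19 in B6. The run on chromosome 5 from 123396201 to 123402400 packed its sites into 6200 bp. It held 19 to 156 reads in B2, with a median of 37, and 6 to 54 in B6, with a median of 11. The run on chromosome 4 from 128875601 to 128884600 was low, with medians of 26 reads in B2 and 10 in B6, and 6 of its sites spanned 1 tile. In that run chr4:128881201-128881800 was highest in both libraries, with 87 and 27 reads. The run on chromosome 6 from 128803801 to 128812000 held 24 to 256 reads in B2 and 7 to 87 in B6. Of its sites, 3 carried most of the reads: chr6:128803801-128804200 with 204 and 69, chr6:128804401-128804800 with 253 and 70, and chr6:128808601-128809000 with 256 and 87.

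Which partner was higher was the same in both libraries for most pairs. Of 1458 pairs without a tie, 1284 (88.1%, Wilson 95% interval 86.3 to 89.6) had the same higher partner. Of the 808 in which one partner had at least 2 times the reads of the other in B2, 794 (98.3%) kept that order in B6 and 14 did not. The log2 ratio of left to right partner, with 0.5 reads added to each count, had r = 0.919 and rho = 0.908 between the libraries over 1536 pairs. Reads were summed over the same tiles in both libraries, and the rule set the number of tiles from both. Members of 1 tile held a median of 24 reads in B2 and 9 in B6, and those of 3 tiles 120 and 43. In 526 of the 1536 pairs both partners spanned 1 tile. A wider partner can thus be higher in both libraries through the rule, and how much of the shared order this makes was not tested. Pairs share both libraries and members, so this is a description. The share with the same higher partner was 89.9% at gaps of 400 to 800 bp, 86.1% at 1000 to 2000 bp and 87.2% at 2200 to 5000 bp, with overlapping intervals.

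**Figure D3:**
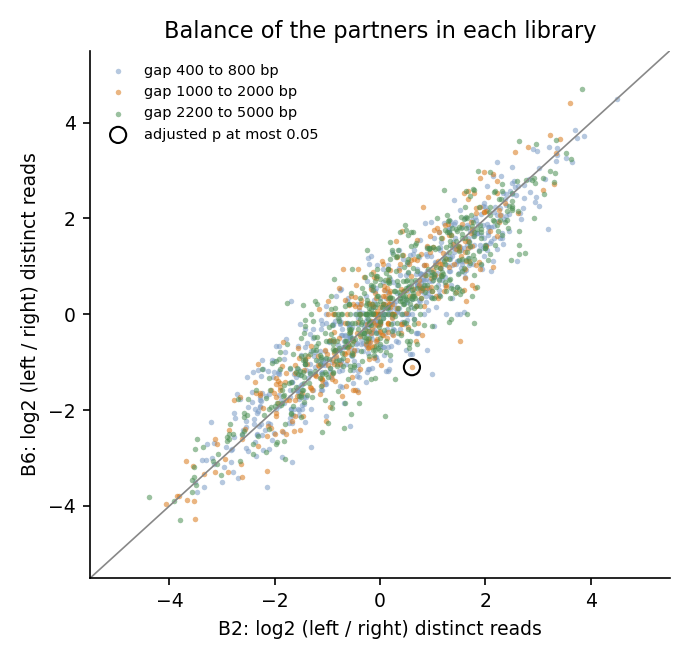
Each point is a neighbouring pair, placed by the log2 ratio of distinct reads of its left to its right partner in B2 (horizontal axis) and B6 (vertical axis), coloured by gap; the grey line marks equal ratios. Points follow the line (r = 0.919), and the ringed pair is the 1 that passed the test for a different balance.

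Partners commonly differed in height. The higher partner had a median of 2.10 times the reads of the lower in B2, with quartiles of 1.40 and 3.53, and 2.08 times in B6. The median was 2.21 in B2 at gaps of 400 to 800 bp, 2.0 at 1000 to 2000 bp and 2.06 at 2200 to 5000 bp. Between consecutive sites of 1 to 3 tiles with gaps above 10000 up to 20000 bp it was 1.97, and 2.07 with gaps above 20000 up to 50000 bp. The differences between these medians were not tested. The log2 read counts of partners had weak correlations across pairs, with r = -0.05 in B2 at gaps of 400 to 800 bp, 0.08 at 1000 to 2000 bp and 0.07 at 2200 to 5000 bp. Those values were 0.00, 0.01 and 0.08 in B6. All these sites had passed the same minimum, which narrows the range of the lower one.

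A change in the balance of partners between the libraries was found in 1 pair. In two-sided Fisher's exact tests of left and right reads by library, adjusted over all 12742 pairs of consecutive sites by Benjamini-Hochberg, 18 passed (0.141%). Of the 1536 neighbouring pairs, 1 passed (0.0651%), and 60 (3.91%) had an unadjusted p below 0.05, against 5.59% of all pairs. On chromosome 8, chr8:72830401-72830800 held 128 reads in B2 and 23 in B6, while chr8:72832001-72832600 held 84 and 50. The left partner was thus higher in B2 and the right one in B6, a change of -1.71 in the log2 ratio (Fisher's exact test, adjusted p = 0.0205). With tiles moved by 100 bp the same place gave 126 and 69 reads in B2 and 24 and 45 in B6, with an adjusted p of 0.0184. With the shift set to 40 or 80 bp or with minima of 20 and 8 reads, Fisher's exact test called 0 neighbouring pairs. It called 0.181%, 0.136% and 0.157% of all pairs there. Whether the chromosome 8 pair still counted as a neighbouring pair under these settings was not followed. Unadjusted p-values below 0.05 were then found in 68 of 1527, 55 of 1480 and 45 of 870 neighbouring pairs. On data simulated with 4-fold changes in 200 neighbouring pairs, this test recovered 29.5%, so most changes of that size would not be called at this depth.

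The share of reads that came from B6 differed at few members. Over all sites B6 held 27.0% of the reads, and each site was tested against this share by a two-sided exact binomial test with Benjamini-Hochberg adjustment over 12761 sites. Of the members, 9 passed (0.298%), against 0.549% of all sites. Of these, 8 were higher in B6 and 1 lower, beside 0.455% and 0.094% of all sites. The rule set a minimum in each library on these same reads, so places unlike between the libraries could be left out before this test. The low count and its split between higher and lower may thus be partly set by the rule. The largest rises in B6 were at chr7:101692001-101692200, with 18 reads in B2 and 23 in B6, and at chr2:98465601-98466200, with 98 and 95. Relative to the expected share these were 1.78 and 1.39 on the log2 scale (exact binomial test, adjusted p = 0.0274 and 7.17e-08). The chromosome 2 site also held 136 distinct reads with 2 alignments in B2 and 115 in B6, which this test left out. Next came chr11:120765001-120765400 with 52 and 47 reads and 1.29 on the log2 scale (exact binomial test, adjusted p = 0.00792). The member that was lower in B6 was chr15:88536001-88536200, with 72 reads in B2 and 7 in B6 (-1.84 on the log2 scale, exact binomial test, adjusted p = 0.0262).

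The count of such members rests on the expected share. When that share was taken from all distinct reads of chromosomes 1 to 19, 1402 members were higher in B6 and 0 lower, and 51.2% of all sites were called. The median member then lay 1.04 above expectation on the log2 scale in B6. The minima of the rule were 10.3 times the genome mean per tile in B2 and 23.0 times in B6. The rule thus asked for a higher level in B6, which sets part of this split and of this median.

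Reads beside the partners were compared between the inner and outer sides. Pairs with a gap of at least 800 bp were used. Reads were counted from 200 bp beyond each site to the middle of the gap, or at most 2500 bp. They were set against mirror windows on the outer sides. Pairs whose outer window came within 200 bp of another site were left out, so pairs in dense stretches were tested less often. A two-sided exact binomial test with adjustment over 8488 testable pairs was used. Of 767 neighbouring pairs, 99 (12.9%) had more reads on the inner side in B2 and 83 (10.8%) fewer, while 12.9% of all tested pairs were called higher and 12.9% lower. In B6, 23 neighbouring pairs (3.0%) were higher and 17 (2.22%) lower, against 2.67% and 2.86% of all. These shares lie near those of all pairs. With windows that began at the site edge, 194 of 1196 neighbouring pairs (16.2%) were higher in B2 and 145 (12.1%) lower, against 14.8% and 14.1% of all pairs tested that way. By the sum of reads, the inner side held 1.21 times the outer side in B2 at a gap of 800 bp (115 pairs), 1.07 times at 1000 to 2000 bp and 0.982 times at 2200 to 5000 bp. In B6 these ratios were 1.20, 1.23 and 0.982. At short gaps the inner windows lie near both partners and the outer windows near 1 only. How much of the ratio at short gaps this makes was not tested.

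In both libraries 30 neighbouring pairs passed, 18 with more and 12 with fewer reads on the inner side, out of 767. Over all 8488 tested pairs 156 (1.84%) were higher in both and 174 (2.05%) lower. Pairs were ranked by the geometric mean over both libraries of the inner to outer ratio, with 0.5 reads added to each count, so that counts of 0 in B6 weigh heavily in the order. First in that order was the pair of chr18:75125601-75126000 and chr18:75131001-75131400, where the inner windows held 86 reads against 29 in B2 and 20 against 0 in B6 (adjusted p = 4.34e-06 and 0.000578, exact binomial test). The pair chr4:135733201-135733600 and chr4:135735601-135735800 had 80 inner against 13 outer reads in B2 and 26 against 1 in B6. At chr8:109781401-109781600 and chr8:109782601-109783000 the numbers were 23 against 7 and 13 against 0. At the low end of the order stood chr7:4616201-4616400 and chr7:4617201-4617600, with 6 against 26 reads in B2 and 0 against 12 in B6. The pairs chr9:78151601-78151800 with chr9:78153801-78154000 (7 against 61, and 2 against 15) and chr13:48980401-48980600 with chr13:48982601-48982800 (24 against 48, and 0 against 11) were the other low ones. By B2 alone, the chromosome 4 pair had the highest ratio of the 3 high pairs, and the chromosome 9 pair the lowest of the 3 low pairs. At the largest gap of 5000 bp, the highest pair, chr10:80781601-80782200 and chr10:80787201-80787800, had 58 inner against 117 outer reads in B2 (exact binomial test, adjusted p = 0.000178). In B6 it had 8 against 25 (exact binomial test, adjusted p = 0.0649). Just outside, the highest pair at 5200 bp was chr11:117779401-117779800 and chr11:117785001-117785600, with 86 and 155 reads in B2.

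The mean level was also followed tile by tile from the edge of the site. The 385 of 554 pairs with gaps of 2200 to 5000 bp that could be tested above were used. A tile 200 to 400 bp from the site held 3.43 times the genome mean towards the partner and 3.87 times away from it in B2. In B6 these values were 4.21 and 4.81. From 800 to 1000 bp they were 2.42 and 2.35 in B2 and 2.86 and 2.97 in B6. Beside the 8243 sites standing alone the level was 3.64 in B2 and 4.94 in B6 at 200 to 400 bp. It was 2.01 and 2.28 at 800 to 1000 bp. The difference from sites standing alone was not tested, since regions are not replicates.

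**Figure D4:**
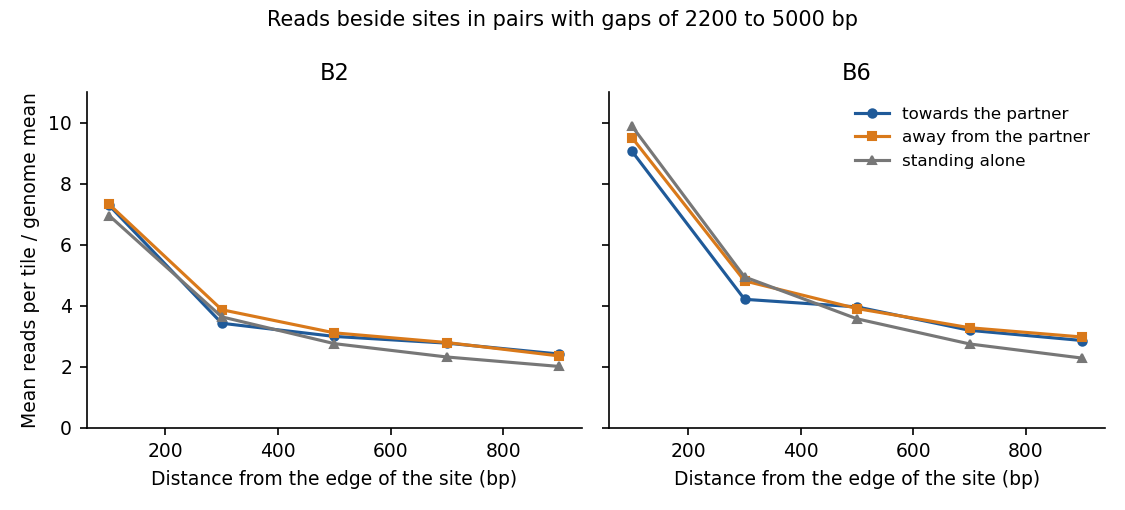
Mean distinct reads per 200-bp tile relative to the genome mean (vertical axis) by distance from the edge of the site in bp (horizontal axis). Lines are given in B2 and B6 for the 385 testable pairs with gaps of 2200 to 5000 bp and 8243 sites standing alone. The blue line (towards the partner) and orange line (away from it) run close together, and from 400 bp on both lie above the grey line of sites standing alone.

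Few members had unequal strands by the test. In a ChIP library, reads of the plus strand pile up before a bound place and those of the minus strand after it. The median distance from plus to minus 5′ ends within a member came to 113.5 bp (B2) and 109.5 bp (B6). At sites standing alone it was 114.5 and 111.0 bp. Reads were assigned to sites after the move of 60 bp, and most sites spanned 1 tile. This limits how far the distance could depart from the value that the move assumes, at both kinds of site alike. The plus strand held a median of 50.0% of reads at left and at right partners in both libraries. By two-sided exact binomial tests adjusted over all sites, 20 members (0.661%) had unequal strands in B2 and 8 (0.265%) in B6, against 0.4% and 0.118% of all sites. Of the 20, 19 leaned to the same strand in B6. With all reads kept, 76 members (2.51%) passed in B2 and 29 (0.959%) in B6, against 1.66% and 0.533% of all sites. The 20 were high sites, with a median of 211 reads in B2, and 14 of them also held at least 3 distinct reads with 2 alignments.

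In both libraries 6 members passed, of 11 among all sites (0.0862%), and both partners of the chromosome 11 pair at 87238801 were among them. The left partner, chr11:87238801-87239400, had 143 plus and 63 minus reads in B2 and 69 and 27 in B6. The right partner, chr11:87242601-87243200, had 132 and 61, and 68 and 28. Both thus leaned to the plus strand by similar amounts. The site chr11:101443001-101443600 leaned the same way, with 162 and 54 reads in B2, and so did chr12:55618201-55618600, with 124 and 61. The sites chr11:97518401-97518800 (113 and 180) and chr12:70280001-70280400 (69 and 176) leaned to the minus strand.

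Sites standing alone were higher by the median than neighbouring ones, at 46 against 38 reads in B2 and 16 against 14 in B6. Of the sites standing alone 53.3% spanned 1 tile, against 59.5% of the members. Within a width the medians were close: 24 and 26 reads in B2 at 1 tile, 73 and 72 at 2 tiles, and 120 and 124 at 3 tiles, for members and sites standing alone. Duplicates made up 22.6% of the reads at members in B2 and 11.5% in B6, against 18.7% and 10.98% at sites standing alone. Reads with 2 alignments were as frequent at both, with at least 3 distinct ones in B2 at 7.18% of members and 7.10% of sites standing alone. None of these differences was tested, and every site of either kind had passed the same minima.

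Members also lay in denser surroundings. From 5 to 50 kb away, a range the rule did not use, a member had a mean of 2.64 other sites of any width and a median of 2, while a site standing alone had a mean of 1.63 and a median of 1. No other site in that range was present for 21.8% of members and 35.9% of sites standing alone. A site of more than 3 tiles lay within 5 kb of 99 members (3.27%).

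The share of sites with a neighbour differed among chromosomes. It was highest on chromosome 7, where 345 of 1026 sites of 1 to 3 tiles were members (33.6%, Wilson 95% interval 30.8 to 36.6). Chromosomes 17 (31.4%), 19 (31.1%), 11 (28.1%) and 8 (27.7%) followed, and the median over chromosomes was 22.8%. It was lowest on chromosome 13, at 53 of 376 (14.1%, 10.9 to 18.0), where the rule left out the stretch from 21 to 24 Mb. Chromosome 14 had 18.5%. Across 19 chromosomes this share followed the density of such sites, from 3.76 per mapped Mb on chromosome 13 to 10.2 on chromosome 11, with r = 0.817 and rho = 0.805. A member needs another site within 5 kb, so more sites per Mb raise this share by the definition alone. The number of members followed the number of protein-coding genes, with r = 0.837 and rho = 0.795. Chromosomes differ in length and share both libraries, so these correlations are descriptions.

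**Figure D5:**
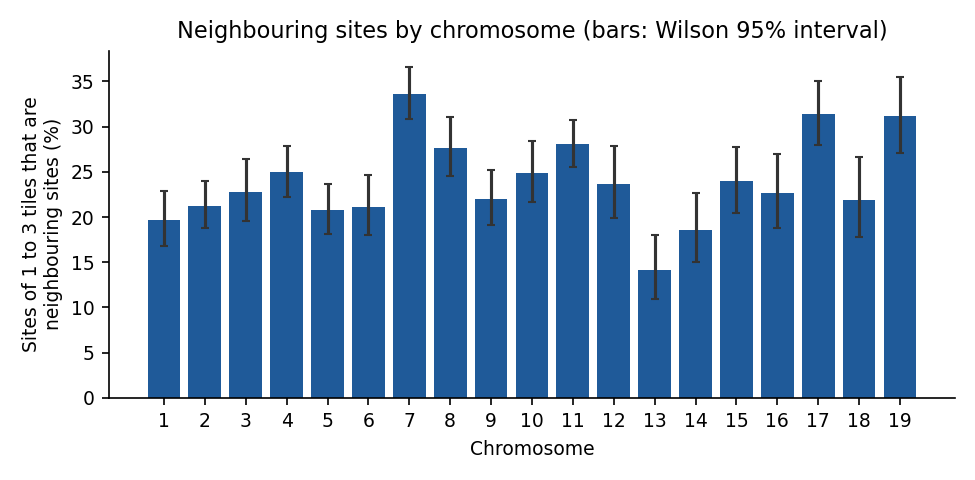
Percentage of sites of 1 to 3 tiles that are neighbouring sites (vertical axis) on each chromosome (horizontal axis), with Wilson 95% intervals as error bars, which cover counting error only. Chromosome 7 is highest at 33.6% and chromosome 13 lowest at 14.1%.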

How the data were processed

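The deposited files are lists of signed alignment positions, a unit other than counts per feature, with a minus sign for the minus strand. Per the file headers, the authors aligned reads with Bowtie, of a version not given in the sources used here, to mm8 (settings -e 70, -k 2, -m 2, -n 2) and so dropped reads with more than 2 alignments. Reads with 1 alignment were used, and duplicates were removed here. The stretch from 21 to 24 Mb of chromosome 13 and all positions below 3.2 Mb were left out. Mapped length (2132 Mb) counts 1000-bp bins that held a B2 read. Python 3.11.15, NumPy 2.4.6, SciPy 1.17.1, pandas 2.3.3 and matplotlib 3.10.9 were used.

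The members, named regions and tests were chosen with earlier results of these data known. Regions named are the 10 highest pairs, the 5 runs with most members (ties broken by mean RPM), the highest pair per gap class, and the extremes of each test and at each threshold. The chromosome 17 run of 4 sites, the members unequal in strands in both libraries and the chromosome 6 runs were chosen after their values were seen. Tests were tested on simulated data with 4-fold changes in 200 members or pairs. The B6 share test recovered 66.5% with 6 false calls over 12761 sites, the strand test 58.5% in B2 and 15.5% in B6, and the inner-side test 86.5% in B2 and 18.5% in B6. Simulated reads had Poisson or binomial spread only. Intervals are 95% and cover counting error only. Gene numbers per chromosome came from RefSeq (GRCm38.p6), and no coordinate of it was used.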

Additional observations from a re-analysis of the deposited data

Results flagged for a closer look

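Reads with 2 alignments stood outside the comparisons above and were present at a minority of members. At least 3 distinct ones, the limit that a count of 0 allows, were present at 217 of 3024 members in B2 (7.18%, Wilson 95% interval 6.31 to 8.15) and at 209 in B6 (6.91%, 6.06 to 7.87). Among all 12761 sites, 7.67% (B2) and 7.38% (B6) held as many, so the members lie near the share of all sites. Such a read is listed at both its places, so these counts do not tell which place was bound.

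Of the 5 members with the most such reads in B2, 4 lay on chromosome 6, in 2 runs of the same layout. The first run had sites at chr6:128725601-128726000, chr6:128726201-128726600 and chr6:128729601-128730000, with 159, 228 and 97 distinct reads with 2 alignments in B2. The second had sites at chr6:128764401-128764800, chr6:128765001-128765400 and chr6:128768601-128769000, with 170, 254 and 107. In B6 the same sites held 86, 124 and 46, and 87, 136 and 47. The first sites of both runs were 38.8 kb apart by their centres in B2. From the first site, the centres of the others lay 629 and 4031 bp away in the first run and 597 and 4175 bp in the second. By reads with 1 alignment the sites held 157, 132 and 191 in B2 in the first run and 100, 161 and 226 in the second, and in B6 47, 33 and 58, and 35, 33 and 69. Another run began 78.2 kb from the first and was the run of 7 members at 128803801 named in the report. Its 3 high sites lay at 0, 580 and 4823 bp by the same measure, but held only 14, 8 and 7 distinct reads with 2 alignments. Of these 9 sites, 3 passed the exact binomial test for unequal strands in B2, against 0.4% of all sites. They were chr6:128729601-128730000 with 65 plus and 126 minus reads (exact test, adjusted p = 0.00733), chr6:128768601-128769000 with 81 and 145 (adjusted p = 0.0121) and, with more plus reads, chr6:128803801-128804200 with 130 and 74 (adjusted p = 0.0384). None of these 3 passed in B6, where chr6:128764401-128764800 did, with 4 plus and 31 minus reads (exact test, adjusted p = 0.00884). Of all sites, 0.118% passed in B6. The 9 sites were high and were picked with their values known, and at high counts this test calls smaller differences. This layout was noticed after the values were seen, and sequence identity between the runs was not tested.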

How the results depend on the processing

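No paired analysis was possible because the 2 libraries form 1 group. The share of pairs with the same higher partner stayed between 86.6% and 88.4% under the 5 alternatives run. Pairs with more reads on the inner side in B6 numbered 26 to 32 under 6, beside 23 in the main setting. Their share was lowest with windows from the site edge, at 2.68% of 1196 pairs against 3.13% of all pairs. It was highest with minima of 20 and 8, at 6.74% of 445 pairs against 5.39% of all pairs. With minima of 20 and 8 reads there were 1721 members (1483 of the 3024 overlapped), and by leaving out a library there were 4551 (tiles from B6 alone) and 6030 (from B2 alone). Reads with 1 or 2 alignments gave 3290. The mean of the libraries' median centre distances, 1560 bp, became 1440 bp with minima of 20 and 8, 1520 bp with tiles moved, 1597 bp with a shift of 40 bp and 1577 bp with a shift of 80 bp. With all reads kept, 114 members (3.77%, against 2.92% of all sites) differed in B6 share, 5 pairs (0.326%, against 0.651% of all pairs) in balance, and 76 members in strands in B2 and 29 in B6 (1.66% and 0.533% of all sites). Members with a different B6 share numbered 4 with minima of 20 and 8, 15 with a shift of 40 bp, 17 with tiles moved and 1402 with the share from all reads, where 0.575%, 0.55%, 0.579% and 51.2% of all sites were called. Neighbouring pairs differing in balance by Fisher's exact test numbered 0 with a shift of 40 or 80 bp and with minima of 20 and 8. Of all pairs, 0.181%, 0.136% and 0.157% were called there. At an unadjusted p below 0.05 in this test there were 68, 55 and 45 neighbouring pairs. With windows from the site edge, 194 of 1196 pairs had more reads inside in B2 (14.8% of all tested pairs). Some alternatives test other sites or fewer of them; beyond that the cause was not tested. Depth limits B6 most: its strand test recovered 15.5% of simulated 4-fold changes.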
